A study of Homo sapiens with 45 samples.

Results

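The end of a human motor neuron differentiation, day 15, was compared with its start, day 0, across all genes. The members are the 3 libraries labelled day 15 and the 3 labelled day 0, chosen by day alone, 6 of the 45 RNA sequencing libraries from 15 days (0 to 15 without day 3). The cells of both groups are H9, a long-used line of human embryonic stem cells. Before day 0 the cells of both were plated as clumps on fibronectin in N2B27 medium with CHIR99021 (3 µM), an inhibitor of GSK3 that activates Wnt signalling, bFGF (5 ng/ml), the TGF-beta receptor inhibitor SB431542 (10 µM), the BMP receptor inhibitor DMH1 (2 µM) and a ROCK inhibitor (10 µM, taken out after 48 hours). Day 15 cells had then been dissociated, replated at 175000 cells per 35 mm dish and kept in retinoic acid (RA, 100 nM) and SAG (500 nM), which switches on Hedgehog signalling through Smoothened. They had the ROCK inhibitor again for the first 48 hours, and fresh medium every other day. Day 0 cells are labelled as the control and as derived from neuromesodermal progenitors. The medium named from day 0 on no longer lists CHIR99021, bFGF, SB431542 or DMH1. Time, RA, SAG, replating, the second ROCK inhibitor exposure and the end of those 4 agents all separate day 15 from day 0, so their parts cannot be told apart.

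Neuromesodermal progenitors are the cells of the tail bud that make both spinal cord and paraxial mesoderm, and Wnt and FGF signals hold them in that state. RA ends it and sets position along the hindbrain and spinal cord, while Hedgehog signals pattern the neural tube from its ventral side, where the floor plate, the p3 domain and the OLIG2+ motor neuron domain lie next to each other. Progenitors there leave the cell cycle under proneural factors and become neurons, and the motor neurons among them use acetylcholine. These are bulk libraries, in which fewer cells of a type and less RNA per cell cannot be told apart.

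The 3 day 15 libraries held 32508511 to 39066247 expected counts, with 24696 to 25072 genes above 0, and the 3 day 0 libraries held 33279409 to 33952006 counts, with 23349 to 23578 genes. The share of mitochondrial genes was 4.08% to 4.35% in day 15 libraries and 2.24% to 3.21% in day 0 libraries. The correlation of log2 levels between replicates was 0.989 to 0.992 within both days. Day 15 replicate 3 stood further from replicates 1 and 2 than these did from each other, with a chi-square per degree of freedom of 15.4 and 21.5 against 5.03, while the day 0 pairs lay between 5.55 and 13.8. Nothing in the labels beyond the word biorep says that replicates were separate cultures, so p-values measure the spread between these samples, which may be technical. Levels below are CPM, counts scaled to the size of the library, in the order of replicates 1 to 3 or as the mean of n = 3 libraries ± SD. Log2 changes are given ± SE, day 15 over day 0. Calls are at an adjusted p under 0.05 from edgeR's quasi-likelihood test with Benjamini-Hochberg adjustment. The 95% intervals and the lower bounds (against 3 counts over a group at 0) for genes with few or no counts cover counting error only.

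Most of the genes tested differed between the ends. Of 19436 genes, 7837 were higher on day 15 (40.3%) and 7032 were lower (36.2%), and the libraries of the 2 days did not overlap for 15164 (78.0%). With a change of at least 2-fold required as well, 4332 genes were higher (22.3%) and 2743 lower (14.1%). At least 32-fold changes were more often rises, with 685 higher and 218 lower genes. The median log2 change was 1.15 among genes called higher, -0.79 among those called lower and 0.07 over all genes. The split of the calls differed between counts and TPM, where the test and the genes tested changed as well. The part of each was not tested. Of the genes called, 52.7% were higher on day 15 with counts, and 52.4% and 52.5% with upper-quartile factors and DESeq2 size factors. The share was 64.4% with limma on log2(TPM + 1) and 64.7% on log2(TPM + 0.1). The median of all genes lay there at 0.23 and 0.27. A small fall of a list should therefore be read against these medians, and where a list median printed here turned round with TPM this is said beside it.

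**Figure D1:**
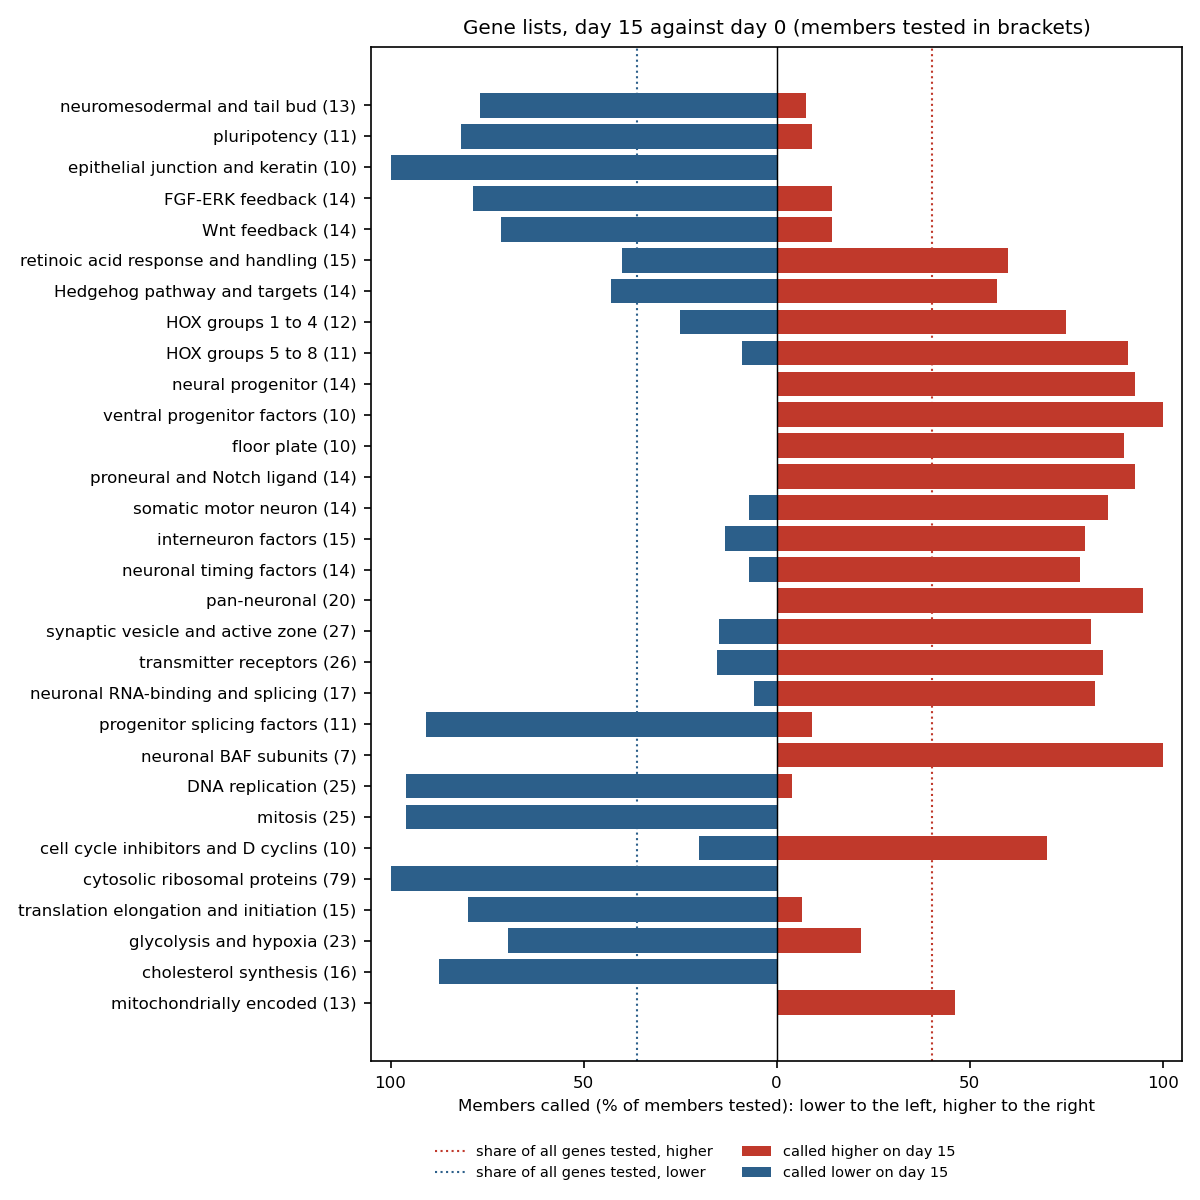
Share of the members of 30 gene lists called higher (to the right) or lower (to the left) on day 15 than on day 0, in percent of the members tested, whose number is in brackets. The dotted lines mark 40.3% and 36.2%, the shares of all 19436 genes tested. All 79 ribosomal protein genes lie on the lower side, and all 10 genes of the ventral progenitor list on the higher side.

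Some lists set day 15 replicate 3 apart. All 10 floor plate genes and 13 of 14 proneural and Notch ligand genes had their lowest day 15 level there. Replicate 3 was also lowest for 16 of 20 pan-neuronal genes and highest for 2. It was lowest for 22 of 27 synaptic vesicle and active zone genes and highest for 3. For neuronal RNA-binding and splicing genes it was lowest for 14 of 17 and highest for 0. All 25 mitosis genes and 14 of 15 p53 target genes had their highest day 15 level in replicate 3. The same held for 24 of 31 proteasome and 10 of 12 BMP readout genes, with 2 and 1 lowest there. Over all genes tested, replicate 3 was the lowest day 15 library for 37.8% and the highest for 38.6%. Without that library, 7839 genes were higher and 6761 lower, of which 4397 and 2772 changed at least 2-fold.

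The genes that define the starting cells were nearly gone on day 15. CDX2, a homeobox factor of the tail bud (ENSG00000165556 on chromosome 13, 27962137 to 27971139), had 0, 0.0263 and 0 CPM on day 15, against 497, 468 and 507 CPM on day 0. The groups did not overlap, and the ratio of day 0 to day 15 was 55591 (counting interval 9977 to 2195800.0), with an adjusted p of 1.2e-38. NKX1-2, a homeobox factor of the same cells (ENSG00000229544 on chromosome 10, 124445239 to 124450184), had 0.203, 0.184 and 0.122 CPM on day 15, against 1041, 910.1 and 984 CPM on day 0, a log2 change of -12.48 ± 0.16 (adjusted p = 3.4e-39). TBXT (brachyury), the T-box factor of the primitive streak and tail bud, had 0, 0 and 0 CPM on day 15, against 21.9, 34.1 and 14.9 CPM on day 0. That is at least 895-fold lower on day 15, and the day 0 libraries themselves lay far apart. CDX1, of the same family as CDX2, was at 0 in every day 15 library and at 72.1, 102 and 53.3 CPM on day 0, at least 2862-fold lower on day 15.

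Of 14 neuromesodermal genes, 13 were tested, 10 fell and 1 rose. They had a median of -10.20 on the log2 scale, which is -9.88 if uncounted genes are set to their bound. The Wnt target SP5 (0.0257 ± 0.0264 CPM on day 15 and 179 ± 8.93 CPM on day 0), the ligand gene WNT8A (0.00814 ± 0.0141 CPM on day 15 and 26.3 ± 5.78 CPM on day 0), the homeobox gene EVX1 (0.00814 ± 0.0141 CPM on day 15 and 14.9 ± 9.97 CPM on day 0) and the ligand gene FGF17 (0.455 ± 0.07 CPM on day 15 and 216 ± 72.7 CPM on day 0) were among those that fell. EVX1 varied on day 0, with 12.5, 25.8 and 6.28 CPM. SP8 fell less, to 18.6 against 35.7 CPM. The member that rose was CYP26A1, an RA-degrading enzyme that RA induces (15.9 ± 3.88 CPM on day 15 and 0.55 ± 0.797 CPM on day 0). GREB1 (121 against 139 CPM) was not called, but was called lower without day 0 replicate 3 or day 15 replicate 2 (adjusted p = 0.023 and 0.021). WNT3A had 1.25, 0.948 and 1.1 CPM on day 15, against 0.182, 1.9 and 0.0619 CPM on day 0 and was not called, but without day 0 replicate 2 its log2 change was 3.14 (adjusted p = 1.8e-06).

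Of the other genes with the largest falls, HES3, a Hes family repressor of early neural progenitors, and URAD, a uric acid pathway enzyme gene that lies beside CDX2 on chromosome 13, were both at 0 on day 15. They averaged 83.7 ± 11.7 CPM and 47.7 ± 4.05 CPM on day 0, so they were at least 3159-fold and 1802-fold lower on day 15. The zinc finger gene ZSCAN10 was also at 0 on day 15 and at 24.8, 25 and 24.9 CPM on day 0, at least 941-fold lower. VRTN, a gene linked to vertebra number in pigs, had 0.00967 ± 0.0168 CPM on day 15 and 82.8 ± 1.95 CPM on day 0. These 4 genes showed no overlap between the days.

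Pluripotency genes fell as well. POU5F1 (OCT4, ENSG00000204531 on chromosome 6, 31164337 to 31180731) had 0.058, 0.0263 and 0 CPM on day 15, against 69.8, 70.6 and 79.7 CPM on day 0, a ratio of day 0 to day 15 of 2771 (counting interval 948 to 13439), and it overlaps TCF19 and has pseudogenes that can share its reads. LIN28A, an RNA-binding protein that blocks the maturation of let-7 microRNAs, had 20.7, 19.3 and 16.2 CPM on day 15, against 2922, 3146 and 2824 CPM on day 0, a log2 change of -7.31 ± 0.09 (adjusted p = 1.8e-40). Of 14 pluripotency genes 11 were tested, 9 fell and 1 rose, with a median of -2.98. The related LIN28B fell by less (26.1 ± 0.406 CPM on day 15 and 139.7 ± 11.4 CPM on day 0), as did the zinc finger factor SALL4 (31.4 ± 3.29 CPM on day 15 and 383 ± 22 CPM on day 0) and the DNA methyltransferase DNMT3B (30.9 ± 3.48 CPM on day 15 and 243 ± 11.6 CPM on day 0). The 1 that rose, LEFTY1, reached only 0.128 CPM on day 15 and was at 0 on day 0, and NANOG and TDGF1 did not pass the filter on low counts. Between the ends the day mean of LIN28A was 576 CPM on day 1, 893 CPM on day 4 and 267 CPM on day 8, and day 15 was the lowest.

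**Figure D2:**
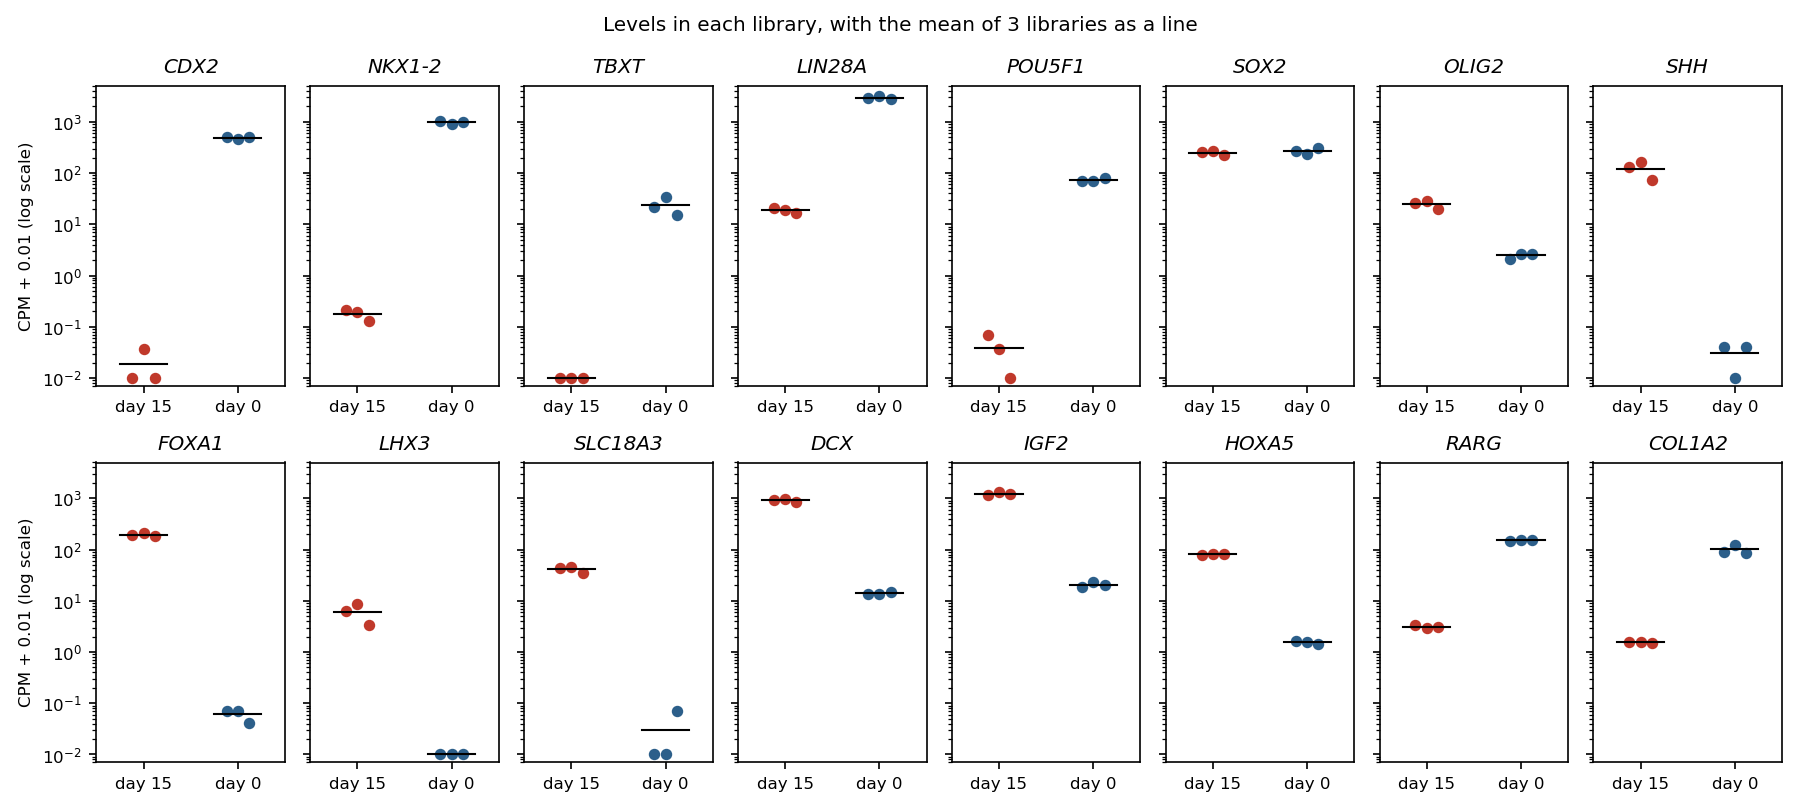
Levels of 16 genes in each of the 3 day 15 libraries (left in each panel) and the 3 day 0 libraries (right), as CPM + 0.01 on a log axis, with the mean as a line. Among these genes the days overlap for SOX2, and for no other.

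All 10 epithelial junction and keratin genes tested fell, of 14 listed, with a median of -2.78. CLDN6, a tight junction claudin of early embryonic epithelium, had 4.69 ± 1.45 CPM on day 15 and 213 ± 11.9 CPM on day 0 (-5.50 ± 0.31, adjusted p = 7.0e-17), and the keratin gene KRT19 had 0.902 ± 0.351 CPM on day 15 and 55.5 ± 4.79 CPM on day 0. KRT8 fell least, to 127 against 239.7 CPM. Feedback genes of the pathways that had been driven before day 0 fell too. Of 14 FGF-ERK feedback genes, 11 fell and 2 rose (median -2.25). IL17RD, an FGF pathway inhibitor, had 84.5 ± 5.21 CPM on day 15 and 719 ± 51.9 CPM on day 0 and the ETS factor gene ETV4 had 4.04 ± 0.877 CPM on day 15 and 107 ± 4.87 CPM on day 0, while DUSP4 (200.5 ± 20.5 CPM on day 15 and 68.3 ± 4.72 CPM on day 0) and SPRED3 rose. Of 14 Wnt feedback genes, 10 fell and 2 rose (median -1.42). AXIN2, a direct target of beta-catenin, had 38.4 ± 2.84 CPM on day 15 and 291 ± 77.7 CPM on day 0, the Wnt effector LEF1 had 6.62 ± 1.83 CPM on day 15 and 171 ± 9.8 CPM on day 0, and the ubiquitin ligase gene RNF43 had 0.348 ± 0.0772 CPM on day 15 and 33.4 ± 1.05 CPM on day 0. Those that rose were the secreted inhibitor DKK1 (4.3 ± 1.59 CPM on day 15 and 1.19 ± 1.09 CPM on day 0) and the receptor LGR5, both below 5 CPM.

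RA handling genes moved in both directions. RARB, the receptor gene that RA induces, had 32.9, 38.6 and 45.3 CPM on day 15, against 0.212, 0.153 and 0.155 CPM on day 0, a log2 change of 7.78 ± 0.18 (adjusted p = 2.6e-31), and RARA had 109 ± 1.16 CPM on day 15 and 14.6 ± 1.08 CPM on day 0. RARG went the other way, with 3.39, 2.87 and 3.05 CPM on day 15, against 146, 155 and 153 CPM on day 0 (-5.61 ± 0.13, adjusted p = 4.5e-31), so the 3 receptor genes did not change alike. Of 16 RA genes 15 were tested, 9 rose and 6 fell, each of the 9 at least 2-fold (median 2.2). The enzymes that break RA down or reduce its precursor rose, with CYP26B1 at 17.8 ± 12.6 CPM on day 15 and 0.328 ± 0.239 CPM on day 0 and DHRS3 at 187 ± 37.7 CPM on day 15 and 9.57 ± 0.718 CPM on day 0. The retinol uptake receptor STRA6 fell (5.55 ± 1.7 CPM on day 15 and 161 ± 16.6 CPM on day 0), and of the RA-binding proteins CRABP1 rose (88.7 against 19.4 CPM) while CRABP2 fell (53.5 against 509.8 CPM). RARB had been higher in between, with 110.1 ± 2.55 CPM on day 1. RARB overlaps TOP2B and STRA6 overlaps CCDC33 in the annotation.

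HOX genes, which encode position along the body axis, mostly rose, and the cells of both days had a trunk-level set. In groups 1 to 4, 9 of 12 rose and 3 fell (median 1.10), and in groups 5 to 8, 10 of 11 rose and 1 fell (median 1.60). HOXA5 had 77.1, 80.4 and 82.6 CPM on day 15, against 1.61, 1.59 and 1.39 CPM on day 0 (5.71 ± 0.10, adjusted p = 9.8e-36), HOXC6 had 111 ± 3.34 CPM on day 15 and 13.8 ± 3.5 CPM on day 0 and HOXD8 had 13.7 ± 0.606 CPM on day 15 and 0.275 ± 0.0276 CPM on day 0. Those that fell in groups 1 to 8 included HOXB1 (29.6 against 108 CPM), HOXD1 (0.797 against 3.38 CPM) and HOXB7 (13.4 against 20.2 CPM), whose call was lost with TPM. Of 16 genes of groups 9 to 13 only 4 were tested, and HOXB9 had 955, 1038 and 1129.8 CPM on day 15, against 854, 889 and 796 CPM on day 0 (0.30 ± 0.05, adjusted p = 3.7e-06). HOXC9 (2.81 against 0.967 CPM), HOXD9 (0.972 against 0 CPM) and HOXA9 (0.148 against 0.62 CPM) were all below 3 CPM on both days. Most of these genes overlap neighbours in their clusters (HOXA5 overlaps HOXA3, HOXC6 overlaps HOXC8 and HOXC9, HOXB9 overlaps HOXB7), so their levels depend on how the authors' counting shared reads.

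Ventral patterning genes rose. All 10 genes of the ventral progenitor list rose at least 2-fold (median 4.23, or 3.42 with uncounted genes at their bound). The list also holds DBX1, DBX2, IRX3 and IRX5, whose domains lie dorsal to that of OLIG2. IRX3 and IRX5 had log2 changes of 1.76 and 3.51. The call of DBX2 was lost without day 0 replicate 1 (adjusted p = 0.081) and with log2(TPM + 1) (adjusted p = 0.13). NKX6-1, which spans the ventral progenitor domains, had 138, 144 and 105 CPM on day 15, against 13.8, 11.4 and 16.1 CPM on day 0 (3.23 ± 0.14, adjusted p = 3.8e-20). OLIG2, the factor of motor neuron progenitors, had 24.9 ± 4.49 CPM on day 15 and 2.47 ± 0.304 CPM on day 0 (3.33 ± 0.16, adjusted p = 7.1e-20). The p3 domain factors NKX2-2 and NKX2-8 were at 0 on day 0 and at 3.82 and 7.11 CPM on day 15, at least 123-fold and 229-fold higher. DBX1 and DBX2 had 0.11 against 0 CPM and 0.204 against 0.0615 CPM. The dorsal factors PAX3 and ZIC1, picked for their role, had 0 against 3.02 CPM and 0.151 against 1.11 CPM. They belong to the crest and roof plate list, of whose 9 tested genes 6 fell and 2 rose. The 2 risers were GDF7 (log2 change 7.01) and TFAP2A (2.14), whose call was lost without day 15 replicate 2.

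Floor plate genes rose and stood near their highest level of the time course at its end. SHH, the Hedgehog ligand that the floor plate secretes (ENSG00000164690 on chromosome 7, 155799986 to 155812273), had 131, 165 and 71.9 CPM on day 15, against 0.0303, 0 and 0.031 CPM on day 0. The ratio of day 15 to day 0 was 5933 (counting interval 1642 to 48993), with an adjusted p of 2.9e-19. FOXA1, a forkhead factor of the floor plate and of endoderm (ENSG00000129514 on chromosome 14, 37589984 to 37596059, overlapping TTC6), had 191, 211 and 185 CPM on day 15, against 0.0606, 0.0611 and 0.031 CPM on day 0 (11.80 ± 0.32, adjusted p = 6.0e-26). Replicate 3 was the lowest day 15 library for both, by a wide margin for SHH. The axon guidance cue NTN1 had 816 ± 229.9 CPM on day 15 and 20.4 ± 2.46 CPM on day 0, FOXA2 had 27.5 ± 8.01 CPM on day 15 and 1.28 ± 0.299 CPM on day 0 and SPON1 had 1319 ± 391 CPM on day 15 and 328 ± 34.8 CPM on day 0. Of 10 floor plate genes 9 rose at least 2-fold and SLIT2 (283 against 243 CPM) was not called, with a median of 4.90 (4.45 at the bound). Their summed level was 1213, 1422 and 826 TPM on day 15, against 179, 205 and 169.5 TPM on day 0, so even the low day 15 library stood well above every day 0 library. Without day 15 replicate 3, SLIT2 was called as well and all 10 were higher, with a median of 5.24.

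Hedgehog pathway genes themselves moved in both directions, 8 of 14 up and 6 down (median 0.33), or 8 up and 3 down with log2(TPM + 1) (median 0.58). HHIP, a Hedgehog-binding inhibitor and target, had 6.43 ± 0.574 CPM on day 15 and 0.0103 ± 0.0179 CPM on day 0, and the co-receptor BOC had 70.9 ± 2.58 CPM on day 15 and 10.9 ± 3.14 CPM on day 0. The receptor and target PTCH1 rose slightly (322 ± 27.2 CPM on day 15 and 259 ± 33.3 CPM on day 0, 0.31 ± 0.09, adjusted p = 0.0014). GLI1, a direct target, was called lower with counts (15 ± 0.699 CPM on day 15 and 21 ± 1.17 CPM on day 0, -0.48 ± 0.11, adjusted p = 1.1e-04), but with limma on TPM its change turned round and was not called (adjusted p = 0.92), so no direction is given for it. GLI2 and GLI3 fell, to 28.8 against 83.5 CPM and 32.4 against 78.2 CPM. GLI1 and HHIP were highest on day 1, with 77.9 and 43.1 CPM, and day 15 held 19.3% and 14.9% of that. Of 12 BMP readout genes, 8 rose and 3 fell, with ID4 (36.8 against 8.22 CPM) and SMAD7 (11.6 against 2.03 CPM) among those that rose and MSX1 (4.68 against 61.8 CPM) among those that fell.

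Neural progenitor genes remained expressed alongside. SOX2, which both neuromesodermal and neural progenitors express, had 254, 267 and 227 CPM on day 15, against 267, 235 and 309.9 CPM on day 0, and was not called (-0.12 ± 0.07, adjusted p = 0.12). Without day 0 replicate 2 it was called lower (-0.19, adjusted p = 0.016). The other 13 of 14 neural progenitor genes rose (median 1.64). PAX6 had 66.4 ± 0.712 CPM on day 15 and 0.215 ± 0.0937 CPM on day 0 (8.25 ± 0.12, adjusted p = 7.9e-38), SOX21 had 60.5 ± 3.94 CPM on day 15 and 1.09 ± 0.76 CPM on day 0 and the Notch effectors HES1 and HES5 had 83.9 against 4.57 CPM and 5.23 against 0.0102 CPM. The intermediate filament genes VIM (2783 ± 43.2 CPM on day 15 and 1041 ± 56.3 CPM on day 0) and NES (1083 ± 81.9 CPM on day 15 and 523 ± 42.9 CPM on day 0) rose as well.

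Of 14 proneural and Notch ligand genes tested, 13 rose and none fell (median 5.4). NEUROD4, a proneural bHLH factor, had 44.5, 54.1 and 39.3 CPM on day 15, against 0.0303, 0.0306 and 0 CPM on day 0, so the ratio of day 15 to day 0 was 2247 (counting interval 622 to 18560.0). NEUROG2 had 21.9 ± 4.15 CPM on day 15 and 0.654 ± 0.268 CPM on day 0, and NEUROG1 was at least 218-fold higher, with 6.7 against 0 CPM. The Notch ligand genes DLL1 (31.9 against 4.19 CPM) and DLL3 (46.5 against 4.94 CPM) rose, HES6 rose slightly (66.6 against 49.8 CPM), and the fringe gene MFNG (2.32 against 2.51 CPM) was not called. The end-to-end difference leaves out most of their level. NEUROG2 was highest with 158 ± 4.17 CPM on day 5 and NEUROD4 with 184 ± 8.83 CPM on day 7, and day 15 held 13.8% and 25% of those levels. None of the 14 was highest on day 15, and 11 were then below 50% of their highest day mean.

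Genes of somatic motor neurons rose with 2 exceptions among 14. LHX3, a LIM homeobox factor of motor neurons, had 6.3, 8.51 and 3.42 CPM on day 15 and was at 0 on day 0, at least 196-fold higher. The vesicular acetylcholine transporter SLC18A3, which lies inside the CHAT gene, had 43.9, 45.1 and 34.3 CPM on day 15, against 0, 0 and 0.0619 CPM on day 0, and the choline transporter SLC5A7 had 35.8 ± 3.2 CPM on day 15 and 0.0103 ± 0.0179 CPM on day 0. Both showed no overlap, with ratios of 2001 (counting interval 554 to 16528) and 3492 (counting interval 626 to 137960.0). MNX1 (6.95 ± 2.53 CPM on day 15 and 0.417 ± 0.215 CPM on day 0), ISL1 (5.49 ± 1.68 CPM on day 15 and 0.0103 ± 0.0179 CPM on day 0) and CHAT (6.23 ± 0.952 CPM on day 15 and 0.0102 ± 0.0176 CPM on day 0) were called at lower levels. In all, 12 of 14 rose at least 2-fold, and PRPH, the peripheral neuron filament peripherin, was not called (18.2 ± 2.73 CPM on day 15 and 20.8 ± 2.81 CPM on day 0). The median log2 change was 4.22. The GDNF receptor gene RET had 7.81, 7.37 and 4.52 CPM on day 15, against 9.6, 7.52 and 12.4 CPM on day 0 and was called lower (-0.59 ± 0.22, adjusted p = 0.016) although the groups overlapped. That call was lost in 7 of 15 alternatives at adjusted p-values of 0.053 to 0.17, among them without day 15 replicate 3 and without day 0 replicate 3. The GDNF co-receptor GFRA1 had 476, 504 and 500.0 CPM on day 15, against 4.91, 6.36 and 4.06 CPM on day 0 (6.59 ± 0.09, adjusted p = 5.5e-39).

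The factors and the transmitter genes of this list stood at different points of their course on day 15. MNX1, ISL1, ISL2, LHX3 and LHX4 were highest on day 8, and day 15 held 29.2%, 43.5%, 8.22%, 33.8% and 27.8% of those levels. CHAT and SLC18A3 were highest on day 13 and SLC5A7 on day 12, and day 15 held 75.5%, 77.9% and 80.4%. The floor plate genes were highest on days 14 or 15, all 10 of them, and none was below 50% of that level on day 15. These days were picked by their level, so the percentages are descriptions without a test.

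**Figure D3:**
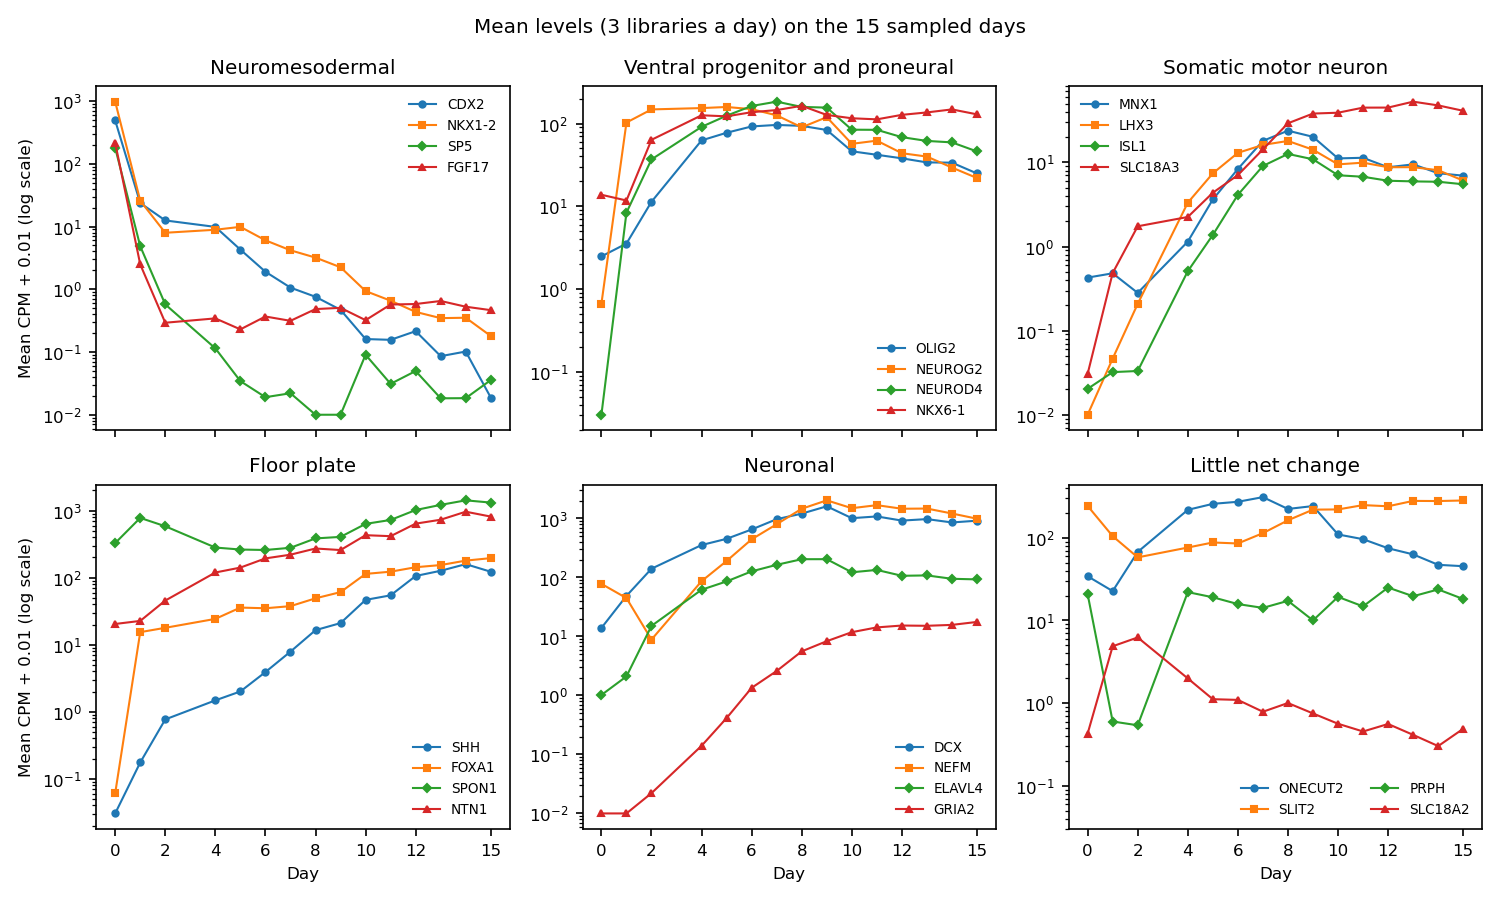
Mean CPM + 0.01 of 3 libraries (log axis) on the 15 sampled days for 24 genes in 6 groups. The neuromesodermal genes drop most between days 0 and 2, the motor neuron factors MNX1, LHX3 and ISL1 are highest on day 8, floor plate genes are highest on days 14 or 15, and the genes with little net change leave and regain their level.

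Of 15 interneuron factors tested 12 rose and 2 fell (median 5.17, or 4.58 at the bound). LHX1, a LIM homeobox factor of several interneuron classes, rose (7.88 ± 1.68 CPM on day 15 and 0.0102 ± 0.0176 CPM on day 0). EN1, of V1 neurons, had 1.31 ± 0.0244 CPM on day 15 and 0.051 ± 0.0177 CPM on day 0. The fallers were PAX2, a kidney and interneuron factor, with 0.174, 0.474 and 0.318 CPM on day 15, against 26, 38 and 19.9 CPM on day 0 (-6.41 ± 0.31, adjusted p = 7.4e-21), and LHX2 (0.165 against 3.05 CPM). Of 4 visceral motor neuron genes tested 3 rose.

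Pan-neuronal genes rose together. Of 20, 19 rose and none fell, 18 of them at least 2-fold (median 2.54). DCX, a microtubule protein of young neurons, had 907, 984 and 861 CPM on day 15, against 13.8, 13.4 and 14.6 CPM on day 0 (6.04 ± 0.21, adjusted p = 3.1e-22). The RNA-binding protein ELAVL4 had 92.7 ± 4.94 CPM on day 15 and 1.01 ± 0.482 CPM on day 0, the tau gene MAPT had 130.4 ± 7.75 CPM on day 15 and 3.43 ± 0.483 CPM on day 0 and the neurofilament gene NEFL had 1322 ± 73.2 CPM on day 15 and 102 ± 6.33 CPM on day 0. Several neuronal genes were not silent on day 0. STMN2 had 623, 653 and 530.5 CPM on day 15, against 259, 254 and 236 CPM on day 0, TUBB3 had 923 ± 123 CPM on day 15 and 234 ± 6.04 CPM on day 0 and UCHL1 had 303 ± 24.2 CPM on day 15 and 211 ± 5.42 CPM on day 0, and RBFOX3 (NeuN) was not called (6.84 ± 1.2 CPM on day 15 and 6.98 ± 0.324 CPM on day 0). The summed level of the list was 6399, 6569 and 5522 TPM on day 15, against 1329, 1281 and 1295 TPM on day 0. Of the 20 genes none was highest on day 15, and day 9 was the highest for 12 of them, DCX with 1609 ± 167 CPM on day 9.

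Genes of synapses and receptors rose in most cases. Of 27 synaptic vesicle and active zone genes, 22 rose and 4 fell (median 1.82). SYT4, a synaptotagmin, had 49.8 ± 5.68 CPM on day 15 and 0.0509 ± 0.0173 CPM on day 0, the complexin gene CPLX2 had 49.4 ± 7.48 CPM on day 15 and 0.55 ± 0.105 CPM on day 0 and the vesicle protein SYP had 45.7 ± 5.56 CPM on day 15 and 3.72 ± 1.02 CPM on day 0, while SV2A (117 against 157 CPM), UNC13A (35.8 against 51.9 CPM), SYN2 and NRXN3 fell by less than 1 on the log2 scale. With log2(TPM + 1) only 2 of the list were lower, and the calls of UNC13A and SYN2 were lost. Of 26 transmitter receptor genes tested, 22 rose and 4 fell (median 3.20). GRIA2, an AMPA receptor subunit, had 18.2, 18.3 and 16.4 CPM on day 15 and was at 0 on day 0, at least 574-fold higher. The glycine receptor subunit GLRA2 had 43.2 ± 6.9 CPM on day 15 and 0.0203 ± 0.0176 CPM on day 0 and the NMDA receptor subunit GRIN2B had 15 ± 3.24 CPM on day 15 and 0.0618 ± 0.082 CPM on day 0. The fallers were GRIK5, GABRA3, GABRB2 and CHRNA7, with GABRB2 at 1.72 against 10.3 CPM.

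Of 26 voltage-gated channel genes tested, 17 rose and 4 fell (median 1.39). The sodium channel genes SCN3A (57.9 ± 6.05 CPM on day 15 and 0.541 ± 0.111 CPM on day 0) and SCN3B (74.3 ± 2.42 CPM on day 15 and 1.19 ± 0.192 CPM on day 0) rose most, and the calcium channel gene CACNA1A fell (10.6 ± 0.506 CPM on day 15 and 32 ± 1.65 CPM on day 0). Transmitter genes moved in both directions, with more up than down. Of 15, 10 rose and 3 fell, with a median of 5.16 that becomes 2.38 with uncounted genes at their bound. The 3 that fell belong to GABA or glutamate use, while GAD2, a gene for a GABA-making enzyme, was called higher (fitted log2 change 5.41). GAD1, which makes GABA, had 0.522, 0.527 and 0.928 CPM on day 15, against 43.7, 53.1 and 36.6 CPM on day 0 (-6.05 ± 0.22, adjusted p = 5.1e-25), with SLC32A1 at 0.0629 against 1.65 CPM and SLC17A7 at 0.408 against 2.71 CPM. SLC17A6, the glutamate transporter of spinal neurons, reached only 0.133 CPM on day 15. DDC, the decarboxylase of the monoamine pathways, had 40.7 ± 17.5 CPM on day 15 and 0.0206 ± 0.0357 CPM on day 0, and TH, of the same pathways, had 0.135 against 0.0205 CPM. Of 14 neuropeptide and granin genes tested 10 rose, with the granin SCG2 at 55.1 ± 17.2 CPM on day 15 and 0.327 ± 0.0388 CPM on day 0 and somatostatin SST at 10.1 ± 2.71 CPM on day 15 and 0.0102 ± 0.0176 CPM on day 0.

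Axon guidance genes changed in both directions, 19 of 29 up and 7 down (median 1.13). SLIT1, a repellent cue, had 697, 796 and 461 CPM on day 15, against 2.3, 2.48 and 2.57 CPM on day 0 (8.05 ± 0.21, adjusted p = 6.2e-26), and SLIT3 rose as well (276 ± 41.5 CPM on day 15 and 22.3 ± 3.31 CPM on day 0), while SLIT2 was not called. The netrin receptor DCC had 95.9 ± 1.44 CPM on day 15 and 0.674 ± 0.194 CPM on day 0, the plexin PLXNA4 had 44.5 ± 0.552 CPM on day 15 and 0.123 ± 0.0815 CPM on day 0, the ephrin receptor EPHA3 had 100.2 ± 14.5 CPM on day 15 and 0.0508 ± 0.0347 CPM on day 0 and the semaphorin SEMA3C had 251 ± 73.3 CPM on day 15 and 3.59 ± 0.373 CPM on day 0. Those that fell included the ephrin receptor EPHA4 (66.6 against 175 CPM) and the semaphorins SEMA3A (29.4 against 112 CPM) and SEMA6A (53.7 against 211 CPM). Members of 1 family therefore stood on both sides, SEMA3C up and SEMA3A down, EPHA3 up and EPHA4 down.

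Other genes with the largest rises were not in these lists. ST18, a zinc finger factor of neurons, had 34.4, 40.5 and 27.4 CPM on day 15 and was at 0 on day 0, at least 1108-fold higher. It had been higher in between, with 92.2 CPM on day 7. MLC1, a membrane protein of astrocytes and radial glia, had 34.6, 34.4 and 22.4 CPM on day 15 and 0 on day 0, at least 983-fold higher. TRIM67, CNTN6, a cell adhesion molecule of the contactin family, and ANKFN1 averaged 19, 16.8 and 14.4 CPM on day 15 and were likewise at 0 on day 0. WNT4, a ligand of the floor plate and other tissues, had 118 ± 13.4 CPM on day 15 and 0.0306 ± 0.000336 CPM on day 0. The natriuretic peptide gene NPPB and the matrix gene POSTN varied most. NPPB had 16.6, 9.9 and 31.1 CPM on day 15, against 0 on day 0, and POSTN had 42, 35.6 and 88.6 CPM on day 15, against 0.0303, 0 and 0 CPM on day 0, both highest in replicate 3.

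Regulators of splicing differed by class. Of 17 neuronal RNA-binding and splicing genes 14 rose and 1 fell (median 2.34), with CELF3 at 136 ± 24.7 CPM on day 15 and 0.154 ± 0.0829 CPM on day 0 (9.76 ± 0.32, adjusted p = 1.7e-23), the exon regulator SRRM4 at 80.6 ± 14 CPM on day 15 and 8.44 ± 0.933 CPM on day 0 and NOVA2 at 253 ± 20.5 CPM on day 15 and 39 ± 9.51 CPM on day 0. Of 11 progenitor splicing factors tested 10 fell and RBM47 rose (median -0.82). PTBP1, which represses neuronal exons, had 317, 303 and 317 CPM on day 15, against 645, 636 and 669.8 CPM on day 0 (-1.06 ± 0.06, adjusted p = 7.6e-18), and its neuronal relative PTBP2 had 71.9 ± 5.61 CPM on day 15 and 43.4 ± 2.24 CPM on day 0. Of the BAF chromatin remodelling complex, all 7 neuronal subunits rose at least 2-fold, ACTL6B to 14.3 against 0.122 CPM and DPF3 to 9.02 against 0.0921 CPM, and the 8 progenitor subunits divided evenly, 4 up and 4 down, none by 2-fold. Among enzymes of DNA methylation, DNMT3B and DNMT1 (154 against 376 CPM) and the demethylase TET1 (62.1 against 146 CPM) fell, and TET2 (77.8 ± 2.16 CPM on day 15 and 14.1 ± 0.552 CPM on day 0) and TET3 (146 against 71.5 CPM) rose.

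Neuronal timing factors mark when neurons are born in the spinal cord. The late factors NFIA (57.4 ± 1.37 CPM on day 15 and 2.25 ± 0.24 CPM on day 0), NFIB (39 ± 4.55 CPM on day 15 and 2.32 ± 0.342 CPM on day 0) and NFIX (8.67 ± 1.75 CPM on day 15 and 0.112 ± 0.0367 CPM on day 0) rose, each at least 4-fold. ZFHX4, another timing factor, also rose at least 4-fold (108 ± 12.4 CPM on day 15 and 13.8 ± 1.33 CPM on day 0). NFIA, NFIB, NFIC, NFIX, BCL11A and BCL11B had their highest day mean on day 15, while NFIC itself was not called (24.9 against 23.8 CPM). Of the early factors ONECUT1 (14.9 against 0.326 CPM) and ONECUT3 (17.8 against 0.0202 CPM) were higher than on day 0 and held 37.7% and 36% of their day 9 level, and ONECUT2 was not called (45.3 against 34.3 CPM) beside 310.2 ± 21.6 CPM on day 7. In all 11 of 14 rose and TCF4 fell (median 3.27).

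Long noncoding RNAs that hold microRNAs were among the lncRNAs that rose most. MicroRNAs are cut from hairpins in such host transcripts, and here only polyadenylated host RNA was measured, not mature microRNAs. LINC00461, which holds MIR9-2 (ENSG00000245526 on chromosome 5, 88507546 to 88691041), had 73.1, 75.8 and 80.8 CPM on day 15 and 0 on day 0, at least 2509.5-fold higher. MIR9-3HG had 59.1, 58.4 and 54.8 CPM on day 15, against 0.0303, 0.122 and 0.0619 CPM on day 0 (9.58 ± 0.18, adjusted p = 6.8e-34). MIR99AHG, which holds MIR99A and MIRLET7C, had 27.3, 28.9 and 27.1 CPM on day 15 and 0 on day 0, at least 908-fold higher, and MIR100HG, which holds MIR100, MIRLET7A2 and MIR125B1, had 25.1, 24 and 24.3 CPM on day 15, against 0.485, 0.673 and 0.279 CPM on day 0 (5.66 ± 0.20, adjusted p = 1.2e-25). The 5p arms of these hairpins are shown because some of them share a seed, the bases 2 to 8 that pair with targets, between hosts on different chromosomes. Their 3p arms, and MIR10526, which MIR100HG also holds, have other seeds and are not shown. The 3p arm of miR-9 is also the same in LINC00461 and MIR9-3HG. RefSeq (GRCh38.p14) gives these sequences, 5′ to 3′, with the seed in capitals.
hsa-let-7a-5p: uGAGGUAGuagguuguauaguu
hsa-let-7c-5p: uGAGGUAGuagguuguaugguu
hsa-miR-100-5p: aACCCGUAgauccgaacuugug
hsa-miR-99a-5p: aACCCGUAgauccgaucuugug
hsa-miR-125b-5p: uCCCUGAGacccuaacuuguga
hsa-miR-9-5p: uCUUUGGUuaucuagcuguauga
The let-7 copy of MIR100HG lies at chr11:122146568-122146589 (minus strand) and that of MIR99AHG at chr21:16539838-16539859 (plus strand), and both carry the seed GAGGUAG. Their neighbours miR-100 (chr11:122152275-122152296, minus) and miR-99a (chr21:16539101-16539122, plus) share the seed ACCCGUA. MiR-9 has the same mature sequence in LINC00461 (chr5:88666902-88666924, minus) and MIR9-3HG (chr15:89368032-89368054, plus). LIN28A, the protein that blocks let-7 maturation, had 18.7 against 2964 CPM, as described above, and no mature let-7 was measured.

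Of 64 lncRNA genes tested that hold a RefSeq hairpin on their strand, 38 rose and 13 fell (median 1.10), beside 44.3% higher and 17.1% lower over all 2718 lncRNA genes tested (median 0.51). MIR17HG, host of a cluster linked to proliferation, was lower on day 15 (1.66 ± 0.241 CPM on day 15 and 3.5 ± 0.161 CPM on day 0, -1.07 ± 0.21, adjusted p = 1.3e-05). Of the other lncRNAs with the largest rises, LINC02593 averaged 11.8 ± 3.65 CPM on day 15 and 0 on day 0, and PANTR1 averaged 14.9 ± 1.39 CPM on day 15 and 0.0102 ± 0.0176 CPM on day 0. At the other end, AC104461.1 was at 0 on day 15 and had 11.8, 13.6 and 9.26 CPM on day 0, and D21S2088E averaged 0.00878 ± 0.0152 CPM on day 15 and 13.4 ± 1.04 CPM on day 0. AC009654.1, AC098936.1, BLACAT1 and SNHG4 had log2 changes of -7.97, -5.35, -4.15 and -3.62. AC104461.1 and the last 3 of these overlap other genes.

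H19 and IGF2, imprinted neighbours on chromosome 11, rose together. H19, a lncRNA that holds MIR675, had 1167, 1254 and 1184 CPM on day 15, against 3.66, 4.25 and 3.06 CPM on day 0 (8.36 ± 0.27, adjusted p = 2.7e-23). IGF2, a fetal growth factor, had 1135, 1301 and 1238 CPM on day 15, against 18.2, 23.1 and 20.6 CPM on day 0 (5.89 ± 0.22, adjusted p = 9.1e-22), and it overlaps INS-IGF2. Of 17 imprinted genes tested 11 rose and 2 fell (median 1.34), with CDKN1C (52.4 ± 6.71 CPM on day 15 and 11.6 ± 0.417 CPM on day 0), MEST (599 ± 56.4 CPM on day 15 and 297 ± 14.8 CPM on day 0) and MAGEL2 (17.6 ± 1.67 CPM on day 15 and 3.91 ± 0.298 CPM on day 0) among the first and GRB10 (113 against 205 CPM) and SNRPN (194 against 270.2 CPM) the second. H19, IGF2, PEG3, PEG10 and MEST were highest on day 15 of all days.

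Cell cycle genes were lower on day 15 but far from lost. Of 25 DNA replication genes, 24 fell, with a median of -1.43. CCNE2 was called higher (0.22 ± 0.10, adjusted p = 0.04), but the call was lost in 6 of 15 alternatives at adjusted p-values of 0.06 to 0.17, among them without day 15 replicate 2, day 15 replicate 3 or day 0 replicate 2. MCM3, a subunit of the replicative helicase, had 103, 101 and 109 CPM on day 15, against 506, 493 and 498 CPM on day 0 (-2.26 ± 0.07, adjusted p = 1.3e-27). Of 25 mitosis genes, 24 fell and PRC1 (124 against 125 CPM) was not called, with a smaller median of -0.74. The proliferation marker MKI67 had 346, 345 and 375 CPM on day 15, against 479, 506 and 557 CPM on day 0 (-0.53 ± 0.07, adjusted p = 3.2e-09). Most members of both lists were highest on days 1 or 2, and on day 15 24 replication genes and 22 mitosis genes were below 50% of their highest day mean. Of the cyclin-dependent kinase inhibitors all 7 rose. CDKN2B had 24 ± 12.8 CPM on day 15 and 0.0511 ± 0.0471 CPM on day 0, CDKN2A had 9.89 ± 1.28 CPM on day 15 and 0.0815 ± 0.0636 CPM on day 0 and the p53 target CDKN1A had 212 ± 46.1 CPM on day 15 and 66.9 ± 4.67 CPM on day 0. P53 targets as a list moved both ways, 9 of 15 up and 6 down (median 0.44), or 8 up and 6 down without day 15 replicate 3 (median 0.28), from AEN (76.7 against 191 CPM) to TP53INP1 (150.3 against 25.8 CPM). Of 15 immediate early genes 10 rose and 3 fell, JUN furthest (66.2 ± 2.81 CPM on day 15 and 1.09 ± 0.21 CPM on day 0).

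All 79 cytosolic ribosomal protein genes were lower on day 15, 24 of them at least 2-fold (median -0.89). Per length, they held 128440, 125350 and 128430 TPM on day 15, against 205560, 211980 and 200890 TPM on day 0, in all 12.7% and 20.6% of the total. RPLP0, a protein of the large subunit's stalk (ENSG00000089157 on chromosome 12, 120196686 to 120201235), had 1172, 1124 and 1153 CPM on day 15, against 2879.7, 2957 and 2861 CPM on day 0 (-1.33 ± 0.05, adjusted p = 1.5e-24), and RPS2 had 987, 941 and 979.6 CPM on day 15, against 2621, 2628 and 2624 CPM on day 0 (-1.44 ± 0.06, adjusted p = 1.0e-23). Neither gene overlapped between the days. With log2(TPM + 1) 78 of the 79 were lower, with a median of -0.64. Many ribosomal protein genes have pseudogenes, and RSEM shares ambiguous reads among copies. Of 15 translation factors 12 fell and 1 rose (median -0.76), the poly(A)-binding protein PABPC1 fell further (1112 ± 71.7 CPM on day 15 and 4206 ± 851 CPM on day 0, -1.92 ± 0.07, adjusted p = 1.8e-24), and the nucleolar protein NPM1 had 729 ± 67.2 CPM on day 15 and 2178 ± 129.9 CPM on day 0. EEF1A1 had 10803 ± 510.4 CPM on day 15 and 17104 ± 589 CPM on day 0 and its neuronal paralog EEF1A2 was the member that rose, with 184 ± 16.3 CPM on day 15 and 6.3 ± 0.832 CPM on day 0 (4.87 ± 0.09, adjusted p = 4.1e-34).

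Transcripts of the translation machinery are known to start with a C followed by an unbroken run of C and T bases, the terminal oligopyrimidine tract. The start sites of the genes with the largest loss in TPM are shown for that reason, 15 bases before and 15 from the RefSeq start (GRCh38.p14, 5′ to 3′), with the C and its run in capitals.
RPLP0: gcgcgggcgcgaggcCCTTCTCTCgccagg
RPS3: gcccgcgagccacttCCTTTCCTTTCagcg
RPS6: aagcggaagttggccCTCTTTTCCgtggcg
RPS18: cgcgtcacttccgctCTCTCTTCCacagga
RPL41: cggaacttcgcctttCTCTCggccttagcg
EEF1A1: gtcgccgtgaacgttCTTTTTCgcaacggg
NPM1: cggggagcctgcgtcCTTTCCCTggtgtga
They lie at chr12:120201097-120201126 (minus strand), chr11:75399503-75399532 (plus), chr9:19380222-19380251 (minus), chr6:33272060-33272089 (plus), chr12:56116618-56116647 (plus), chr6:73521018-73521047 (minus) and chr5:171387834-171387863 (plus). For 7 of the 10 genes with the largest loss a start was found in the table and printed, and these 7 have a C at the start followed by at least 4 bases that are C or T. The same holds for 43 of the 63 ribosomal protein genes that the table matched (68.3%), and for 4.04% of all 27305 promoters in that table, read on the gene's strand only. For contrast, 2 of the nuclear genes with the largest gain in TPM, a tubulin and an intermediate filament, start as follows, with no such tract.
TUBA1A: atccgcctatgtgccgcaggttctcttaca
VIM: gtgcaatcgtgatctgggaggcccacgtat
They lie at chr12:49189066-49189095 (minus) and chr10:17228226-17228255 (plus), and none of the 5 nuclear genes with the largest gain has the tract. The table matched under 80% of the 79 ribosomal genes and of the 10 with the largest loss, so neither share is a check of its whole set. A match is a description of letters at an annotated start, not of where these transcripts began.

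Of the 10 genes that gained most TPM, all but H19, described above, were of the cytoskeleton or of the mitochondrial genome. TUBA1A, the alpha tubulin of young neurons, had 5392, 5197 and 4440.4 CPM on day 15, against 1062, 957 and 1110.3 CPM on day 0 (2.26 ± 0.07, adjusted p = 3.7e-27), and it can share reads with other tubulin genes. The actin gene ACTG1 had 4029 ± 180.5 CPM on day 15 and 2549.8 ± 57.5 CPM on day 0 and TMSB4X, an actin-binding peptide gene, had 656 ± 42.1 CPM on day 15 and 187 ± 13.7 CPM on day 0. MT-CO1 had 8956, 9667 and 8118 CPM on day 15, against 4543, 4057 and 6099.7 CPM on day 0 (0.86 ± 0.17, adjusted p = 4.2e-05), with the spread on day 0 wider than that on day 15. MT-RNR2 (8463 ± 136 CPM on day 15 and 5262 ± 902 CPM on day 0), MT-CO2 and MT-CYB rose as well. Of 13 mitochondrially encoded protein genes 6 rose (46.2%, beside 40.3% of all genes tested), 1 of them at least 2-fold, and none fell (median 0.36). Without day 0 replicate 3, 10 rose (median 0.52), and with log2(TPM + 1) all 13 rose (median 0.62). The call of MT-ND4 (3629 ± 247 CPM on day 15 and 2760.5 ± 580.0 CPM on day 0, 0.39 ± 0.17, adjusted p = 0.032) was lost in 5 alternatives, at adjusted p-values of 0.056 to 0.14. The part of RNA quality in these levels was not tested.

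Of 23 glycolysis and hypoxia genes tested 16 fell and 5 rose (median -0.84), or 3 rose without day 15 replicate 3, with the glucose transporter SLC2A3 at 111, 94 and 117 CPM on day 15, against 1354, 1378 and 1188 CPM on day 0 (-3.61 ± 0.07, adjusted p = 3.7e-34) and the hexokinase gene HK2 with a log2 change of -1.78. HK1 rose (161 against 101 CPM), as did the neuronal enolase ENO2 (128 against 93.8 CPM), while ENO1 fell (729.7 against 1606 CPM). Of 16 cholesterol synthesis genes 14 fell (median -0.32). With log2(TPM + 1) the list's median was -0.01 and 6 genes were lower. Of 31 proteasome genes 20 fell and 5 rose (median -0.19), and of 42 nuclear genes of oxidative phosphorylation 25 fell and 6 rose (median -0.21). Both medians turned round with log2(TPM + 1), to 0.06 and 0.05, so no direction is given for these lists.

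**Figure D4:**
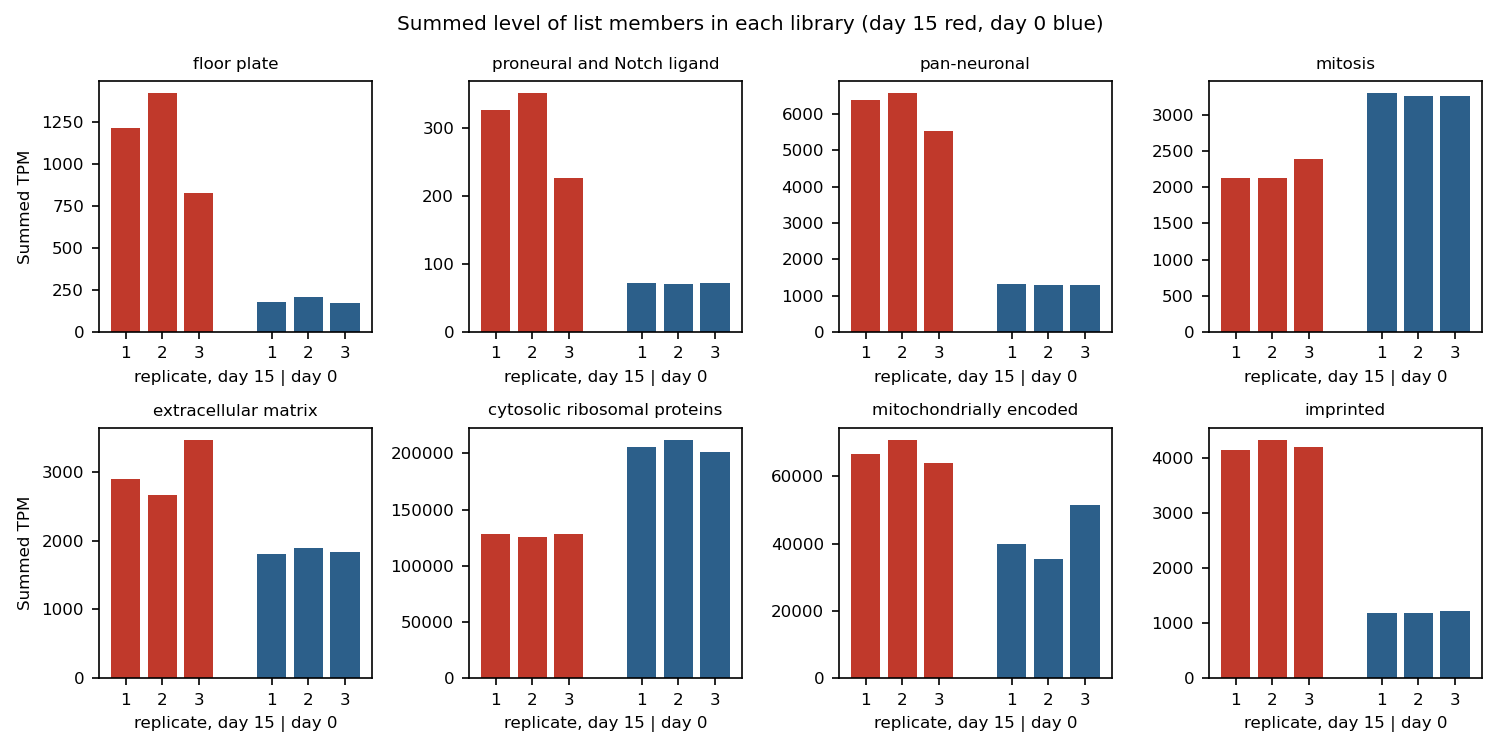
Summed TPM of the members of 8 lists in each library, day 15 in red on the left and day 0 in blue on the right of each panel, with axes from 0. The ribosomal sums lie between 125350 and 128440 TPM on day 15, below every day 0 library, and the floor plate sum is lowest in replicate 3 among the day 15 libraries.

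Matrix and glial genes moved in both directions within families. The 2 chains of type I collagen went opposite ways. COL1A1 had 517, 319 and 840.2 CPM on day 15, against 76, 103 and 74.9 CPM on day 0 (2.72 ± 0.38, adjusted p = 1.3e-07), highest in replicate 3, and COL1A2 had 1.54, 1.58 and 1.51 CPM on day 15, against 90.5, 124 and 87.2 CPM on day 0 (-6.02 ± 0.25, adjusted p = 3.8e-21). Of 24 matrix genes 10 rose (41.7%) and 12 fell (50%), beside 40.3% and 36.2% of all genes tested. Without day 15 replicate 3, 8 rose and 13 fell. Their median of -0.24 was 0.05 with log2(TPM + 1), while the basement membrane genes NID2 (3.34 ± 0.796 CPM on day 15 and 91.6 ± 28.8 CPM on day 0) and LAMA1 (66.2 ± 14.1 CPM on day 15 and 234 ± 7.83 CPM on day 0) fell and the laminin LAMA4 (13.5 ± 1.09 CPM on day 15 and 0.551 ± 0.0872 CPM on day 0) rose. Of 15 radial glia and astrocyte genes tested 8 rose (53.3%) and 6 fell (40%), with a median of 1.17. The glutamate transporters SLC1A2 (156 ± 24.6 CPM on day 15 and 16.3 ± 0.409 CPM on day 0) and SLC1A3 (183 ± 50.7 CPM on day 15 and 35.3 ± 3.54 CPM on day 0) rose. The astrocyte filament gene GFAP fell (0.0519 against 0.633 CPM). Of 10 oligodendrocyte genes tested 3 rose and 5 fell (median -0.68), but with log2(TPM + 1) 3 of 8 rose and 3 fell (median 0.14). GPR17 and MBP were among those that rose, with log2 changes of 5.73 and 2.52. SOX10, a factor of that lineage and of neural crest, was at 0 in all day 15 libraries. Its call as lower was lost with DESeq2 (adjusted p = 0.062).

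Markers of other tissues differed in level. Of 10 presomitic and somitic mesoderm genes 6 were tested, 3 rose and 2 fell. TBX6 (0.191 against 1.28 CPM) and TCF15 (0.184 against 2.54 CPM) fell. FOXC2 (6.85 against 0.072 CPM), MEOX1 (log2 change 2.63) and UNCX (3.90) rose, and the call of UNCX was lost without day 15 replicate 2. MSGN1, MESP1, MESP2 and PAX1 did not pass the filter on low counts. The summed level of the mesoderm list was 5.6 to 9.93 TPM on day 15 and 4.16 to 5.51 TPM on day 0. Of 14 muscle genes 8 were tested, 2 rose and 3 fell, and MYOD1, MYOG and MYF5 did not pass the filter. The troponin TNNT1 fell (0.579 ± 0.106 CPM on day 15 and 83.5 ± 2.05 CPM on day 0). The actin genes ACTC1 and ACTA1 rose, with log2 changes of 2.71 and 1.70, and the call of ACTA1 was lost without day 15 replicate 3. The muscle sum was 7.3 to 13.3 TPM on day 15 and 184 to 192 TPM on day 0. Of 6 endoderm genes tested 4 rose, and SOX17 and GATA4 did not pass the filter. The endoderm sum was 234, 261 and 219.5 TPM on day 15, against 10.3, 10.7 and 10.9 TPM on day 0. FOXA1, which the floor plate shares, held 161 TPM of it on day 15, and the chemokine receptor gene CXCR4, which other cells express too, 75.6 TPM. Crest and roof plate genes summed to 6.99 to 8.93 TPM on day 15 and 51.8 to 77.4 TPM on day 0. Of the 9 tested genes 6 were lower and 2 higher, GDF7 and TFAP2A. Of 8 fibroblast and meningeal genes 5 rose and 2 fell, with LUM at 10.0 ± 2.38 CPM on day 15 and 0.0203 ± 0.0176 CPM on day 0, and the summed level was 254, 169 and 407 TPM on day 15, against 74.9, 100.3 and 78.4 TPM on day 0. Without day 15 replicate 3, 5 rose and 3 fell. Blood, surface ectoderm and forebrain lists each stayed under 5 TPM in every one of the 6 libraries. Whether cells of these tissues were present, and what they contributed to the other differences, was not tested.

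Protein-coding genes of the longest span class stood apart, by a property the comparison did not use. Of 1378 protein-coding genes that span over 200 kb, 41.0% were at least 2-fold higher on day 15 and 9.94% at least 2-fold lower, with a median log2 change of 0.59. Among 4556 genes of 50 to 200 kb the shares were 20.4% and 13.5%, and among 6449 genes of 10 to 50 kb 15.8% and 16.0%. Among 2888 genes under 10 kb they were 21.5% and 15.3%. The medians of these classes lay near 0, without a steady rise with length. DCC, CNTN6 and ANKFN1, named above, are among the long ones. Over all 15271 protein-coding genes 20.5% were at least 2-fold higher and 14.6% at least 2-fold lower, and over 1077 pseudogenes 14.4% and 16.1%. With calls of any size these shares were 40.7% and 40.7% for protein-coding genes, and 23.0% and 29.3% for pseudogenes. Neuronal genes are known to be long on average, and whether length has a part beyond that was not tested.

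**Figure D5:**
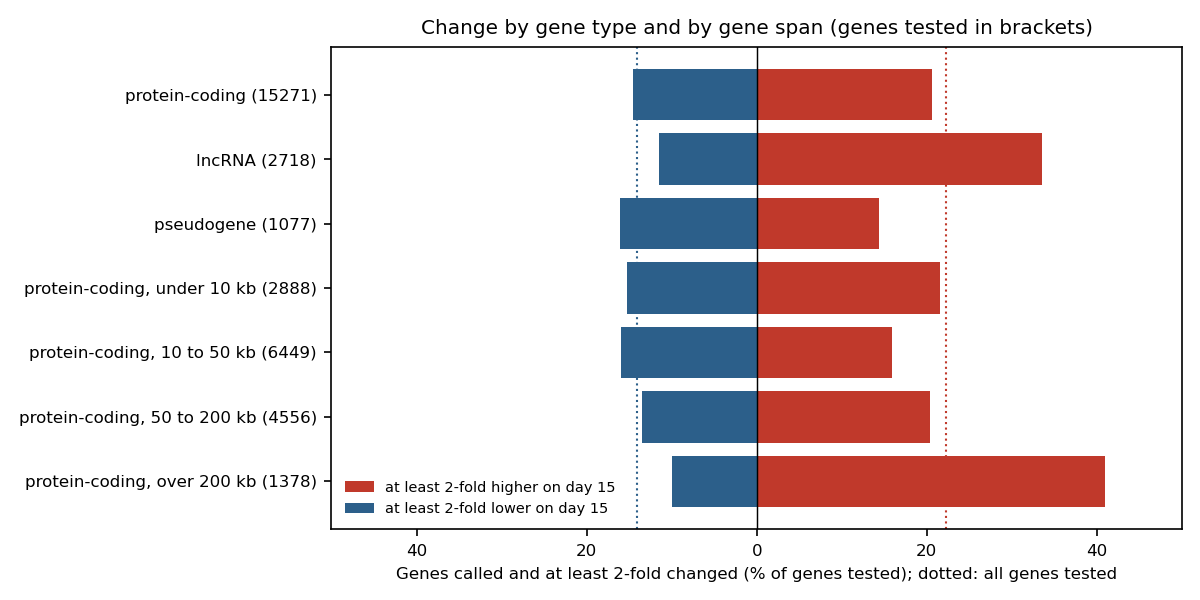
Percent of genes called and at least 2-fold higher (right) or lower (left) on day 15, by gene type and, for protein-coding genes, by genomic span, with the number tested in brackets. The dotted lines mark 22.3% and 14.1%, the shares of all genes. Genes over 200 kb reach 41.0% on the higher side.

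An end-to-end comparison hides genes that left their level and came back. Of 7252 genes with a log2 change within 0.5, 47 stood at least 4-fold above both ends on some day in between and 52 at least 4-fold below both, 1.37% together. Rises were most often highest on day 1 (24 genes) and drops most often lowest on day 2 (24 genes). FEZF2, a forebrain zinc finger factor, was at 0 on both days and had 28.2 ± 1.67 CPM on day 1. SFRP2, a secreted Wnt inhibitor, had 1242 ± 12.5 CPM on day 2, beside 137 ± 5.41 CPM on day 15 and 106 ± 20.8 CPM on day 0. The vesicular monoamine transporter SLC18A2 had 6.22 ± 0.428 CPM on day 2, beside 0.48 ± 0.0682 CPM on day 15 and 0.419 ± 0.0796 CPM on day 0. In the other direction, HOXB9 had 134 ± 0.465 CPM on day 1, below both ends given above. PRPH had 0.53 ± 0.107 CPM on day 2, beside 18.2 ± 2.73 CPM on day 15 and 20.8 ± 2.81 CPM on day 0. SLIT2 had 58 ± 3.13 CPM on day 2, beside 283 ± 59.2 CPM on day 15 and 243 ± 25.9 CPM on day 0. The lncRNA HOXA-AS3 had 3.4 ± 0.221 CPM on day 1, beside 212 ± 36.9 CPM on day 15 and 259 ± 48.1 CPM on day 0. These genes were found by their level on the chosen day, so no test is given.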

How the data were processed

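RNA sequencing libraries (KAPA mRNA preparation) were deposited for 15 days with 3 libraries each. Per the submitters' processing notes, base calls were converted with bcl2fastq 2.20.0 and genes quantified with RSEM on GRCh38. The sources used here give no aligner, annotation, RSEM version or strand setting. The authors deposited expected counts, which RSEM estimates by sharing ambiguous reads (92.5% of the values are whole), and TPM, which is scaled by gene length and library total. Genes were matched by identifier to GENCODE 29 (57895 of 58233).

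Expected counts were rounded and tested with edgeR 4.0.16 (R 4.3.3): filterByExpr by day, TMM factors, all 45 libraries with day as a factor (30 residual degrees of freedom), quasi-likelihood F test with Benjamini-Hochberg adjustment. CPM were computed from the counts with TMM factors. Standard errors are the size of the log2 change over the square root of F. TPM served for sums over lists and for levels per length. On simulated counts (19276 genes), 94 of 100 genes changed by 1 on the log2 scale and 98 of 100 changed by 2 were recovered, with 13 false calls. In that simulation all other genes were set equal on both days, and the changed genes had at least 1 CPM on day 0. The real comparison called 76.5% of the genes tested, so these rates do not cover scaling under so broad a change. DESeq2 1.42.0 and limma 3.58.1 were alternatives. An exact permutation test of 3 against 3 libraries cannot go below p = 0.1, so none is given.

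The comparison and the gene lists were chosen with earlier results of these data known. Named by rule were, among called genes without overlap whose higher day had a mean of 10 CPM or more, the 12 protein-coding and 6 lncRNA genes at each end of the log2 change, the 10 with the largest gain and loss in mean TPM, and, of every list, the called members that changed most (at most 4) and any that moved against the rest. Other members were named for their role, after their values were seen. Some genes that the rule selects are not reported here.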

Additional observations from a re-analysis of the deposited data

How the results depend on the processing

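With limma on log2(TPM + 1), 4687 genes were lower on day 15 and 1291 of them at least 2-fold, and on log2(TPM + 0.1) 4646 and 1659, against 7032 and 2743 with counts. Part of this is built into the alternative, which tests 18075 genes on another scale, and the rest was not tested. Under the other alternatives (no filter, upper-quartile factors, DESeq2, DESeq2 size factors, the 6 libraries alone) the 4 counts stayed within 1.5 times. Leaving out each library in turn gave 7646 to 7839 higher and 6681 to 6761 lower genes, of which 4312 to 4401 and 2655 to 2772 changed at least 2-fold. Same-numbered libraries of the 2 days did not deviate together (correlations of -0.016, -0.036 and -0.086), and with the replicate block 7816 genes were higher and 7029 lower. Of 747 called list members, 87 lost the call in at least 1 of the 15 alternatives (36 without 1 library, 61 with TPM) and 27 turned round at least once, and 73 of the 87 had a log2 change within 1. Among named genes, calls were lost for RET in 7, CCNE2 in 6 and MT-ND4 in 5 alternatives, and for DBX2 in 2. With TPM, calls were lost for HOXB7, SYN2, UNC13A and GLI1 (GLI1 turned round). In 1 alternative, calls were lost for NRXN3, DKK1, DBX1, SOX10, TH, TFAP2A, UNCX and ACTA1. Of 85 members not called, 46 were called in at least 1 alternative. With log2(TPM + 1), list medians were 2.41 for ventral progenitor, 3.18 for proneural, 2.45 for motor neuron, 1.67 for interneuron and 1.73 for receptor genes, against 4.23, 5.4, 4.22, 5.17 and 3.20 with counts, since that scale understates changes of low genes.

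Genes with little net change numbered 192 higher and 191 lower in between at 2-fold, 13 and 14 at 8-fold, and 81 and 87 with a net change within 1, against 47 and 52. With a mean of at least 1 CPM required, median log2 changes were 0.39 for lncRNA, -0.029 for protein-coding, 0.54 for genes over 200 kb and -0.028 for those under 10 kb. Ratios of summed levels, day 15 over day 0, were 0.512 with CPM and 0.618 with TPM for ribosomal, 1.42 and 1.59 for mitochondrial, 5.20 and 4.74 for pan-neuronal, and 0.0709 and 0.0491 for neuromesodermal genes. Single day 0 levels below 1 CPM rest on few counts, which limits the precision of their folds.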
